A study of Mus musculus with 12 samples.

Results

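The 10 genes described here were chosen by the difference between 2 measured values, the change of their RNA with retinoic acid (RA) in F9 cells labelled Rarg knockout and the same change in wild-type F9 cells, on the arrays described here. Rarg is the gene of retinoic acid receptor gamma. They are Gpr50, Esyt3, Pik3r1, Slc26a2, Lgals3, Tcea3, Utf1, Pla2g7, Pcbd1 and Lifr, 10 of the 18193 genes on the arrays, and 20 of the 45037 probe sets carry exactly 1 of these symbols. F9 is an established mouse teratocarcinoma line. The groups were Rarg knockout cells in 1 µM RA (KO_RA), Rarg knockout cells in the ethanol vehicle (KO_vehicle), wild-type cells in 1 µM RA (WT_RA) and wild-type cells in ethanol (WT_vehicle), each harvested at 24 h and each measured on 3 Affymetrix mouse arrays. The labels do not say how Rarg was disrupted, or whether the knockout cells are 1 clone, so a difference between genotypes cannot be told apart from a difference between cell lines.

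RA enters the nucleus and binds retinoic acid receptors, which pair with retinoid X receptors on DNA at direct repeats of a short hexamer and switch between repressing and activating nearby genes. F9 cells grow as undifferentiated stem cells, and RA turns them toward primitive endoderm while genes of the undifferentiated state are shut down. The receptor gamma form is the one most often tied to this step in F9 cells, where the alpha and beta forms are also made.

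The signal is a linear intensity from the MAS5 program. A background level of 81.6 was taken from 86 probe sets for olfactory, vomeronasal and taste receptors, as the mean over arrays of the 95th percentile of their signal, and a lower signal has no reliable size. Array medians lay between 71.2 and 94.6 on 11 arrays and at 143 on KO_vehicle replicate 3. The wait from the logged hybridization time to the scan was 316 min for that array and 238 min for KO_RA replicate 1. It was 13 to 59 min for the other 10 arrays. Which step the logged time marks is not known here. The arrays fell into 3 fluidics runs of 4 arrays with 1 shared logged hybridization time, and each run held 1 array of each group. Run 1 held the replicates numbered 3 here, run 2 those numbered 1 and run 3 those numbered 2. They came from 2 chip lots, and lot 2 held 1 KO_RA, 2 KO_vehicle, 1 WT_RA and 0 WT_vehicle arrays. Rarg itself had a signal of 1357 ± 288 in KO_RA, 1636 ± 102 in KO_vehicle, 1243 ± 222 in WT_RA and 1476 ± 292 in WT_vehicle (SD, n = 3 each), which is not lower in the arrays labelled knockout. Where the probes lie relative to the disrupted stretch is not known here, so this checks neither label, and KO means arrays labelled knockout. Of the markers of the labelled cells, F9 stem cells, 9 of 9 were above background in every group.

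The starts of 2 genes of each main pattern are shown first, because a promoter is where a retinoid receptor could meet each gene: Gpr50 and Esyt3 for a signal that was higher in RA in wild-type cells, Lgals3 and Utf1 for one that was lower, and Pla2g7 and Pcbd1 for an RA change seen in knockout cells. Each window runs from 250 bases before an annotated start to 50 after it, 5′ to 3′ along the gene, from RefSeq on GRCm38.p6. The windows of Esyt3, Pla2g7 and Lifr lie wholly inside the gene spans given below, so the outermost start of these genes was not searched. Capitals mark a retinoid receptor hexamer, the 6-base word that a receptor of this family contacts. The letters searched, on both strands, were AGGTCA with its variants, the word GGGTCA, the word AGTTCA and the word GGTTCA.
Gpr50, chrX:71663417-71663716, plus strand: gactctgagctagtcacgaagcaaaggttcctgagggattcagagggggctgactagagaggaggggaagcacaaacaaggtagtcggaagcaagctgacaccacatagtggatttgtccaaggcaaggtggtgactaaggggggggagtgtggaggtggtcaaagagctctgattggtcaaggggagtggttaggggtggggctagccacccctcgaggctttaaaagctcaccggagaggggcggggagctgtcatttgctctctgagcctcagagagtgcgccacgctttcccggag
Esyt3, chr9:99358481-99358780, minus strand: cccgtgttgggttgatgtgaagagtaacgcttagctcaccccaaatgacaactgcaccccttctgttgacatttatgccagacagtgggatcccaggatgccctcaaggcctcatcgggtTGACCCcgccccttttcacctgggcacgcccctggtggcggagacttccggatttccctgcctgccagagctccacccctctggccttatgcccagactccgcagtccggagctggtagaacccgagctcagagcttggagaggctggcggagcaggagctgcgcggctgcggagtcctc
Lgals3, chr14:47373610-47373909, plus strand: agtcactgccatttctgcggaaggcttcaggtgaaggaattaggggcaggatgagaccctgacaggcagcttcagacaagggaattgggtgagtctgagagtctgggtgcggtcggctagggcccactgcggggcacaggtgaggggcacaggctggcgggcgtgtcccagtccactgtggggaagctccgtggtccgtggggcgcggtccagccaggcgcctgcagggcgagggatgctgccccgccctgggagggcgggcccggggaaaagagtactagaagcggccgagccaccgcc
Utf1, chr7:139943606-139943905, plus strand: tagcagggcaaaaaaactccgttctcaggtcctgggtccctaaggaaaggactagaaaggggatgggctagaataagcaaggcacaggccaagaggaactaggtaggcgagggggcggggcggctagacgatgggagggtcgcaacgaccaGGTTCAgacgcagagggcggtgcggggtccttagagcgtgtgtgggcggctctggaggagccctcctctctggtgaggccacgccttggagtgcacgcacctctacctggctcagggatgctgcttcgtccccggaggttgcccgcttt
Pla2g7, chr17:43568201-43568500, plus strand: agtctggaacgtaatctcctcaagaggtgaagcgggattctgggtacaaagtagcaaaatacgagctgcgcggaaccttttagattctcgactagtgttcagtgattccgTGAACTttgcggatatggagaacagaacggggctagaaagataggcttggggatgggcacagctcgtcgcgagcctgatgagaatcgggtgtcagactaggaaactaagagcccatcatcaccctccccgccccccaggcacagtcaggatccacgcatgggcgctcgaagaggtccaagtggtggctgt
Pcbd1, chr10:61089081-61089380, plus strand: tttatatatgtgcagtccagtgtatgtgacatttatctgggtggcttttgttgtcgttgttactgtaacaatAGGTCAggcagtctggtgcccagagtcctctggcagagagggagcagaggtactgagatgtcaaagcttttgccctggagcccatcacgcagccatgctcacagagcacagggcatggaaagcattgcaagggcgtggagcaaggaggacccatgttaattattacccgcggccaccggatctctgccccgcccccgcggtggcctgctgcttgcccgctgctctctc
The table held 11 windows for 9 of the 10 genes. A hexamer was present in 6 of these 11 windows, against 43.71% of 32851 promoters of the same length. It began 99 bases before the start in Utf1 (-99), and at -130 in Esyt3, -178 in Pcbd1 and -140 in Pla2g7, while each of the 2 Lifr windows held 1, at -247 and -187. The windows of Gpr50, Lgals3, Tcea3 and Pik3r1 held no such letters. Direct repeats of 2 hexamers with a spacing of 1, 2 or 5 bases were in 0 of the 11 windows and in 0.2222%, 0.2679% and 0.09741% of all promoters.

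Each RA change below is the difference of group means of log2(signal + 16), RA minus vehicle, for the brightest probe set of the gene. These changes, and their difference between genotypes, chose the genes and are given as a description with no test. A pattern was called lost where the wild-type change was at least 0.5 in size and the knockout change was smaller than that, gained where the reverse held, reversed where both reached 0.5 with opposite signs, and weaker where both reached 0.5 with the same sign. By group means 5 genes were lost, 2 gained, 2 reversed and 1 weaker. Taken run by run, 4 of the 10 genes fell in that same class in all 3 runs: Esyt3, Slc26a2, Pla2g7 and Pcbd1. The sign of the difference between genotypes was the same in all 3 runs for 10 of 10 genes, a direction that the choice of genes favours. Over the 10 genes the median size of the difference was 1.39, against 0.37 over all probe sets and 0.24 over the 22122 probe sets above background.

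**Figure D1:**
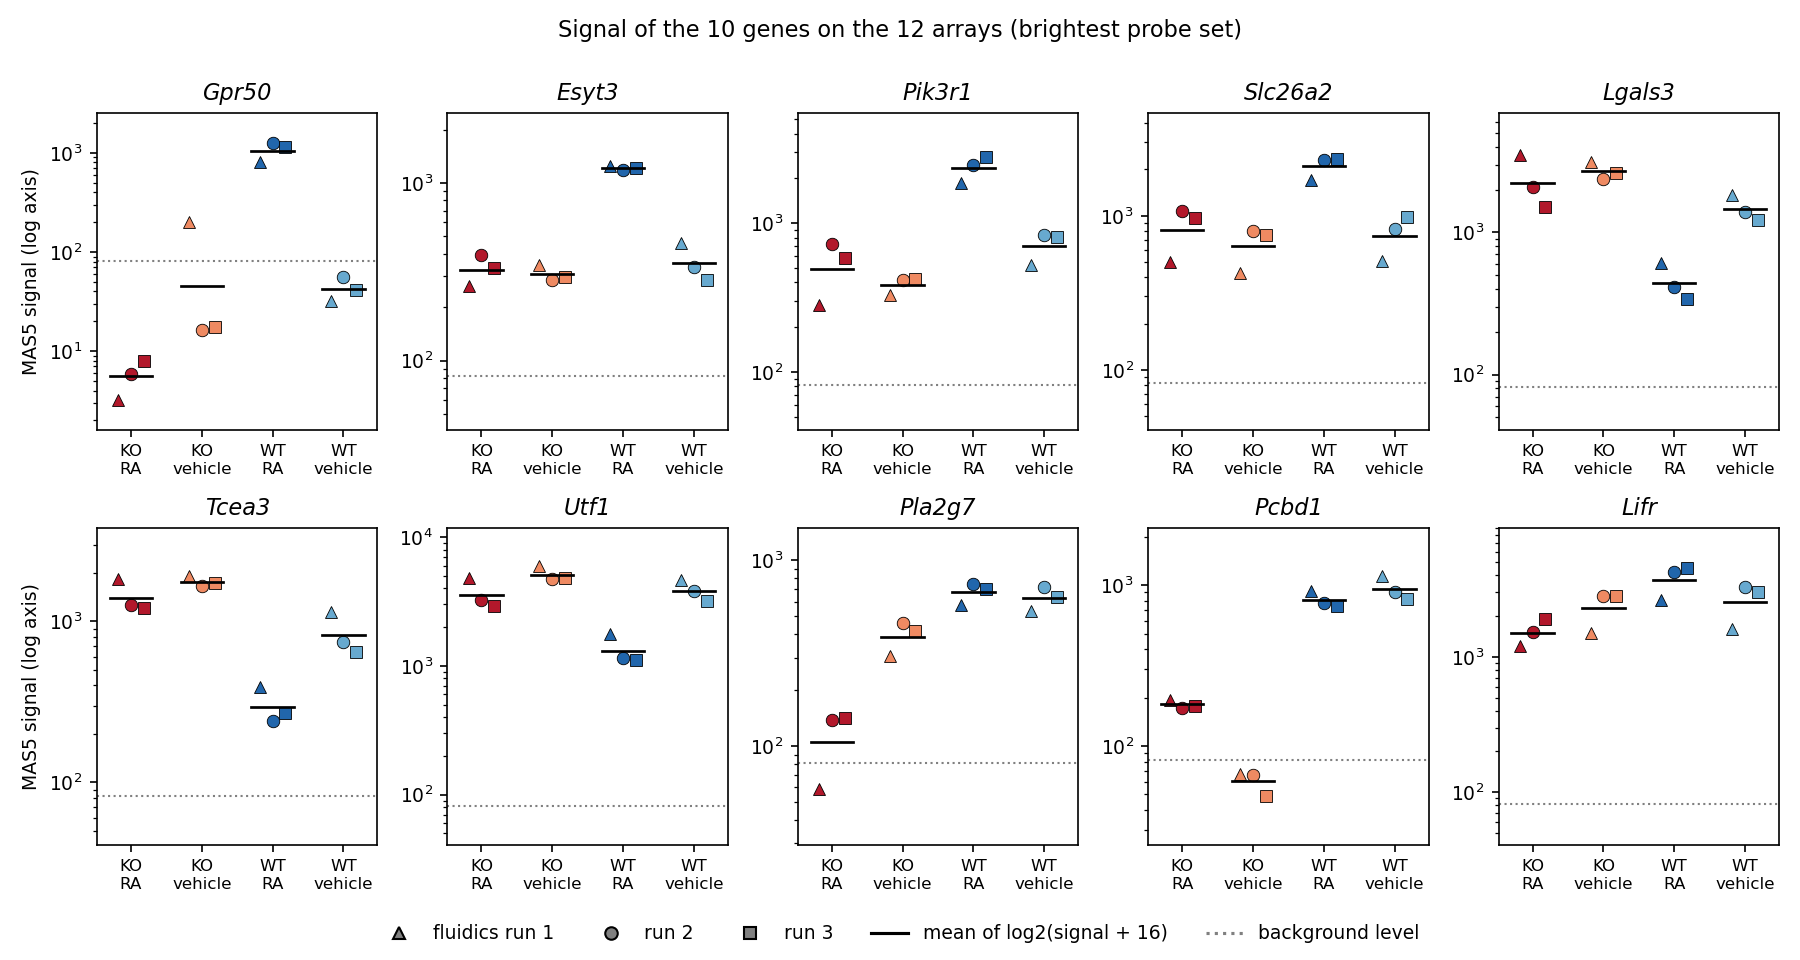
Signal of each gene's brightest probe set on the 12 arrays, on a log axis, by group (KO_RA, KO_vehicle, WT_RA, WT_vehicle); the symbol gives the fluidics run, the bar the mean of log2(signal + 16) turned back into signal, and the dotted line the background level of 81.6. Gpr50, Esyt3, Pik3r1 and Slc26a2 stood highest in WT_RA, Lgals3, Tcea3 and Utf1 stood lowest there, Pla2g7 stood lowest in KO_RA and Pcbd1 lowest in KO_vehicle.

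Gpr50 encodes an orphan receptor of the melatonin receptor family, which does not itself bind melatonin, and lies at chrX:71663667-71669257. Its signal was 5.87, 8.04 and 3.21 in KO_RA, 16.2, 17.4 and 202 in KO_vehicle, 1271, 1133 and 805 in WT_RA, and 56.2, 41.2 and 31.8 in WT_vehicle. Only the 3 WT_RA arrays and KO_vehicle replicate 3, the array with the high median, were above background. The signal in WT_RA was thus at least 10.9-fold that of WT_vehicle and at least 10.9-fold that of KO_RA. The RA change was -1.51 in KO and 4.20 in WT, a difference of -5.71 (SE 0.84). Apart from KO_vehicle replicate 3, whose pair in run 1 gave a KO change of -3.50, the KO change sets values below background against each other and carries no measured size or sign. Without that array it was -0.60, all remaining KO arrays being below background, and -0.46 with the runs blocked too, where the class was lost; the difference was then -4.80 and -4.66. The other probe set, 1450346_at, was above background in WT_RA alone, where its signal was 242 ± 72.4 (SD, n = 3), and its class was lost (RA change -0.29 in KO and 3.49 in WT).

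Esyt3 encodes an extended synaptotagmin, a tether between endoplasmic reticulum and plasma membrane that moves lipids, and lies at chr9:99309963-99360159. It had signals of 393, 334 and 264 in KO_RA, 286, 296 and 347 in KO_vehicle, 1180, 1207 and 1243 in WT_RA, and 336, 286 and 459 in WT_vehicle. The 3 WT_RA arrays lay within a narrow range far above the other 9, and the other 3 groups overlapped. WT_RA was 3.32-fold WT_vehicle and 3.58-fold KO_RA. RA minus vehicle gave 0.08 in KO and 1.73 in WT, and the difference of -1.65 (SE 0.31) was -1.78, -1.33 and -1.85 in runs 1, 2 and 3.

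Pik3r1 encodes the p85 alpha regulatory subunit of class I phosphoinositide 3-kinase, which holds the catalytic subunit stable and docks it to receptors, and lies at chr13:101680761-101768217. Its signals were 724, 584 and 281 in KO_RA, 416, 421 and 329 in KO_vehicle, 2470, 2767 and 1863 in WT_RA, and 837, 803 and 526 in WT_vehicle. WT_RA stood above all other arrays, KO_RA and KO_vehicle overlapped, and every KO_vehicle array was below every WT_vehicle array. Fold ratios were 3.25 for WT_RA over WT_vehicle, 1.80 for WT_vehicle over KO_vehicle and 4.62 for WT_RA over KO_RA. In KO the RA change was 0.34 and in WT it was 1.70, a difference of -1.36 (SE 0.40). It varied between runs, at -2.01, -0.77 and -1.31 in runs 1, 2 and 3, and in run 2 the KO change of 0.78 made the class weaker. The other 3 probe sets (1425514_at, 1425515_at and 1451737_at) gave differences of -1.77, -1.15 and -1.34, all in the class lost. Without WT_vehicle replicate 3 these were -1.14, -0.73 and -0.47, and 1425515_at and 1451737_at turned weaker with quantile normalization or median centring. The brightest probe set also turned weaker with median centring, where its RA change was 0.59 in KO and 1.61 in WT.

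Slc26a2 encodes a sulfate transporter of the plasma membrane that supplies sulfate for proteoglycans, and lies at chr18:61196854-61211596. It had signals of 1079, 965 and 500 in KO_RA, 792, 751 and 425 in KO_vehicle, 2305, 2333 and 1708 in WT_RA, and 819, 979 and 510 in WT_vehicle. WT_RA did not overlap with any other group, and the other 3 groups overlapped; each group had its lowest array in run 1. WT_RA was 2.78-fold WT_vehicle and 2.57-fold KO_RA. The RA change was 0.34 in KO and 1.48 in WT, and the difference of -1.14 (SE 0.42) was -1.49, -1.04 and -0.88 in runs 1, 2 and 3. With median centring the brightest probe set turned weaker, with an RA change of 0.59 in KO and 1.38 in WT. The other 2 probe sets gave differences of -1.09 and -1.30, and the first of these, 1421145_at, gave -0.69 without WT_vehicle replicate 3.

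In Lgals3, Tcea3 and Utf1 the wild-type signal was lower in RA and the knockout signal stayed nearer its vehicle level. Lgals3, which lies at chr14:47373860-47386167, encodes galectin-3, a lectin that binds beta-galactoside sugars on cell-surface glycoproteins. It had signals of 2091, 1497 and 3475 in KO_RA, 2379, 2610 and 3133 in KO_vehicle, 414, 338 and 608 in WT_RA, and 1402, 1228 and 1823 in WT_vehicle. The WT_RA arrays were the 3 lowest, 2 KO_RA arrays lay below the KO_vehicle range and 1 above it, and every KO_vehicle array was above every WT_vehicle array. WT_vehicle was 3.25-fold WT_RA (3.245), KO_vehicle 1.83-fold WT_vehicle and KO_RA 4.89-fold WT_RA. RA minus vehicle gave -0.28 in KO and -1.70 in WT, a difference of 1.42 (SE 0.37). Within runs 1, 2 and 3 the KO change was 0.15, -0.18 and -0.80 and the WT change -1.56, -1.72 and -1.81, so the run 3 pair alone had a KO change past 0.5.

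Tcea3, at chr4:136247936-136274903, encodes a transcription elongation factor of the TFIIS family, which helps stalled RNA polymerase II resume. Its signals were 1262, 1210 and 1827 in KO_RA, 1662, 1735 and 1920 in KO_vehicle, 240, 269 and 393 in WT_RA, and 746, 650 and 1148 in WT_vehicle. Both KO groups lay above both WT groups on every array, and the WT groups did not overlap with each other. WT_vehicle was 2.70-fold WT_RA, KO_vehicle 2.13-fold WT_vehicle and KO_RA 4.59-fold WT_RA. In KO the RA change was -0.33 and in WT it was -1.43, and the difference of 1.11 (SE 0.33) was 1.44, 1.18 and 0.71 in runs 1, 2 and 3.

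Utf1, at chr7:139943856-139945112, encodes a chromatin factor of undifferentiated embryonic cells. Its signals were 3266, 2922 and 4793 in KO_RA, 4692, 4810 and 5921 in KO_vehicle, 1155, 1115 and 1761 in WT_RA, and 3785, 3213 and 4631 in WT_vehicle. The WT_RA arrays were again the 3 lowest, and KO_RA overlapped with KO_vehicle by a single array of run 1. WT_vehicle was 2.89-fold WT_RA, KO_vehicle 1.33-fold WT_vehicle and KO_RA 2.70-fold WT_RA. The RA change was -0.51 in KO and -1.53 in WT, so Utf1 was weaker rather than lost, by a margin of the knockout change over 0.5 that was gone without either of KO_RA replicates 1 and 2 or without KO_vehicle replicate 3. The difference of 1.02 (SE 0.29) was 1.08, 1.18 and 0.80 in runs 1, 2 and 3. Probe set 1443786_at gave 0.92, while 1458333_x_at, whose 4 group means were all below background, gave -1.08 with the sign changing between runs.

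Pla2g7 and Pcbd1 had little RA change in wild-type cells. Pla2g7 encodes the secreted phospholipase that breaks down platelet-activating factor, and lies at chr17:43567994-43612202. Its signals were 138, 141 and 58.9 in KO_RA, 459, 417 and 307 in KO_vehicle, 750, 705 and 573 in WT_RA, and 717, 633 and 534 in WT_vehicle. The 3 KO_RA arrays were the lowest, with replicate 3 below background, and KO_vehicle stood below both wild-type groups, which overlapped. KO_vehicle was 3.32-fold KO_RA, and WT_RA was 5.64-fold KO_RA. The RA change was -1.73 in KO and 0.10 in WT, a difference of -1.84 (SE 0.40). The KO change was -2.11, -1.63 and -1.46 in runs 1, 2 and 3, and the WT change was 0.10, 0.06 and 0.15.

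Pcbd1 encodes a dehydratase that regenerates tetrahydrobiopterin and also holds HNF1 transcription factors in dimers, and lies at chr10:61089331-61094329. Its signals were 173, 178 and 193 in KO_RA, 66.2, 48.6 and 67.1 in KO_vehicle, 776, 737 and 921 in WT_RA, and 901, 820 and 1139 in WT_vehicle. The KO_vehicle arrays were all below background, so KO_RA was at least 2.02-fold KO_vehicle and WT_vehicle at least 9.83-fold KO_vehicle. KO_RA remained far below wild type, and WT_RA was 4.18-fold KO_RA. The RA change was 1.37 in KO and -0.22 in WT, a difference of 1.59 (SE 0.32). The KO change was 1.33, 1.20 and 1.59 and the WT change -0.30, -0.21 and -0.15 in runs 1, 2 and 3. Of the 10 genes, Pcbd1 had the largest gap between genotypes in vehicle among those with a measured or bounded fold.

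Lifr encodes the leukemia inhibitory factor receptor, which pairs with gp130 to signal through JAK and STAT3 in mouse stem cells, and lies at chr15:7090610-7197489. Its signals were 1516, 1904 and 1194 in KO_RA, 2807, 2820 and 1491 in KO_vehicle, 4241, 4512 and 2639 in WT_RA, and 3307, 3034 and 1605 in WT_vehicle. Neither genotype's RA and vehicle arrays separated, with the run 1 array lowest in each group, while every KO_RA array was below every WT_RA array. Within runs the direction was steady: the KO change was -0.32, -0.88 and -0.56 and the WT change 0.71, 0.36 and 0.57 in runs 1, 2 and 3. KO_vehicle was 1.50-fold KO_RA, WT_RA was 1.46-fold WT_vehicle, and WT_RA was 2.43-fold KO_RA. Over all runs the RA change was -0.59 in KO and 0.55 in WT, a difference of -1.13 (SE 0.41), and both changes sat close to 0.5. The class was therefore gained without either of WT_RA replicates 1 and 2 or without WT_vehicle replicate 3, and lost without either of KO_vehicle replicates 1 and 2 or without KO_RA replicate 3. With array weights it was gained as well (-0.73 in KO and 0.46 in WT). Probe set 1425107_a_at gave a difference of -0.91 and 1450207_at gave 0.12, with its arrays near background in KO_vehicle (80.2 ± 32.4, SD, n = 3).

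**Figure D2:**
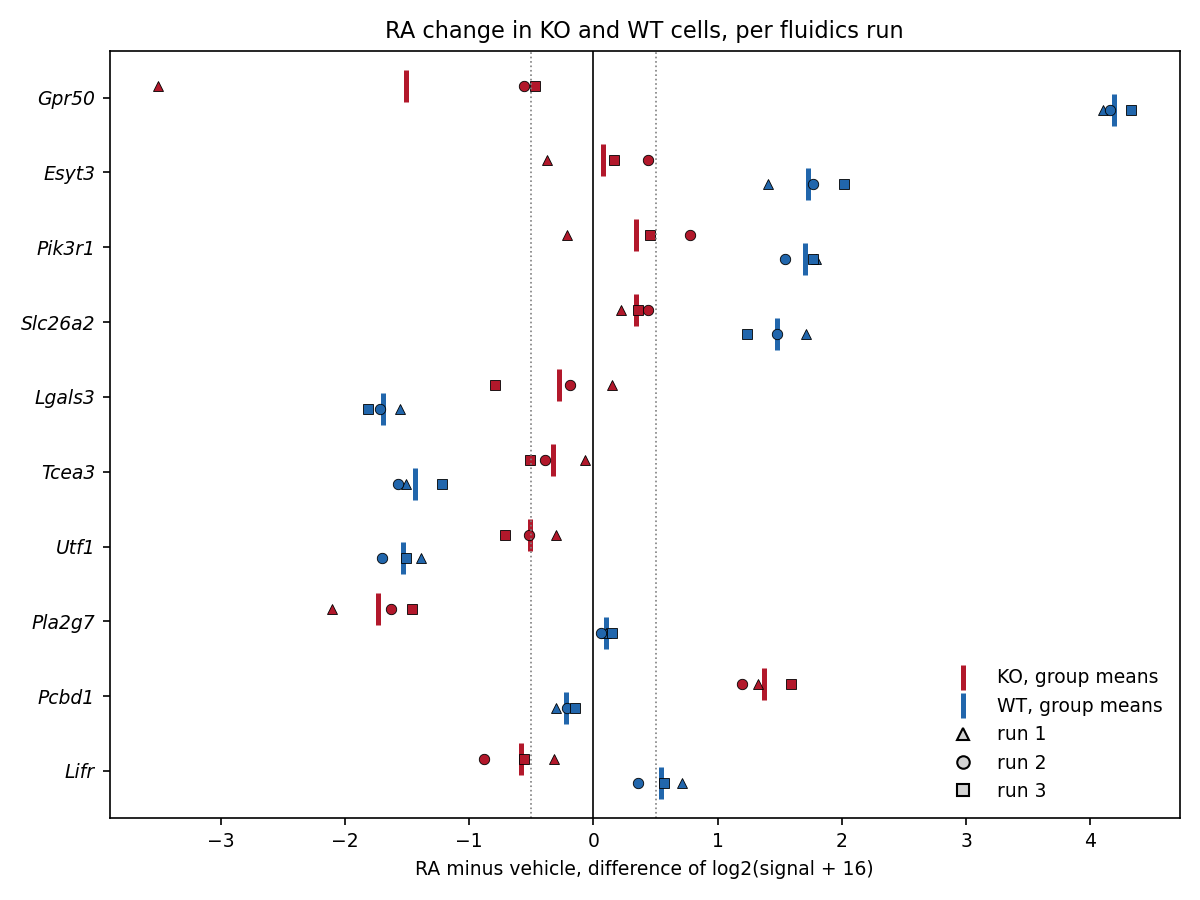
RA minus vehicle on the log2(signal + 16) scale for each gene, in KO (red, above) and WT (blue, below); vertical bars are differences of the group means, symbols are the pair of arrays in each fluidics run, and dotted lines mark 0.5 in size. The genes were picked for the gap between KO and WT, so nothing is read from its presence. Gpr50 had the widest gap, between 4.10 and 4.33 in WT and between -3.50 and -0.47 in KO. Every KO array of Gpr50 but KO_vehicle replicate 3 was below background.

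How the groups separated followed the choice of genes. The RA and vehicle arrays did not overlap in wild type for 7 of the 10 genes, against 14.7% of all probe sets, and in KO for 3 (Gpr50, Pla2g7 and Pcbd1), against 10.0%. KO_vehicle and WT_vehicle did not overlap for 6, against 19.9%. KO_RA and WT_RA did not overlap for 10 of 10, against 22.5%. Nothing is read from these counts, since the picking used the same arrays.

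The picking did not use 2 averages: the KO minus WT difference over both treatments, and the RA change over both genotypes. In a balanced design their estimation error is not tied to that of the difference of RA changes, but they come from the same arrays and spread, and a gene that stands apart in 1 of the 4 groups has a nonzero value in all 3. The counts of genes passing are therefore not independent support. In Esyt3, Slc26a2 and Lifr the KO minus WT gap was small in vehicle (-0.19, -0.22 and -0.15) and lay in the RA arrays (-1.84, -1.36 and -1.28). In Gpr50 the gap was -5.63 in RA, where the KO_RA mean was below background. Its vehicle gap of 0.08 has no measured size, since both vehicle means were below background. By run that gap was 2.19, -1.16 and -0.78 in runs 1, 2 and 3, and run 1 held KO_vehicle replicate 3. For the average over treatments, all 10 genes passed limma's test with Benjamini-Hochberg adjustment over 45037 probe sets, against a background of 10.3% called. Lgals3 (1.58, SE 0.19, adjusted p = 1.9e-05), Tcea3 (1.64, SE 0.16, adjusted p = 3.5e-06) and Utf1 (0.92, SE 0.15, adjusted p = 0.000389) were higher in KO, and 7 were lower. Among those 7, Pcbd1 was 2.86 lower on the log2 scale (-2.86, SE 0.16, adjusted p = 5.8e-09), Pla2g7 differed by -1.58 (SE 0.20, adjusted p = 3.8e-05), Pik3r1 by -1.53 (SE 0.20, adjusted p = 5.9e-05) and Esyt3 by -1.01 (SE 0.15, adjusted p = 0.000243). Gpr50 differed by -2.77 (SE 0.42, adjusted p = 0.000251), with 3 of its 4 groups below background. The direction was the same in all 3 runs for these genes. Slc26a2 (-0.79, SE 0.21, adjusted p = 0.0203) and Lifr (-0.72, SE 0.21, adjusted p = 0.0326) were closest to the threshold and went the same way in each run.

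The calls of Slc26a2 and Lifr depended on single arrays. Slc26a2 had an adjusted p of 0.0567 without WT_RA replicate 1, 0.0593 without WT_vehicle replicate 2, 0.0582 without WT_RA replicate 2 and 0.0615 without KO_vehicle replicate 3. Lifr had 0.0969 without KO_vehicle replicate 3 and between 0.0649 and 0.0946 without WT_RA replicate 1 or 2, WT_vehicle replicate 1 or 2, or KO_RA replicate 1 or 3. Over all alternatives tried, the adjusted p of Slc26a2 ran from 4.8e-06 to 0.108 and that of Lifr from 2.5e-06 to 0.152.

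Markers of the cells moved with genotype as well. The summed signal of 18 endoderm markers, of which 14 were above background in each group, was 13170 to 38580 in KO_RA, 11840 to 35580 in KO_vehicle, 72660 to 91940 in WT_RA and 84860 to 89110 in WT_vehicle, with medians of 38360, 35520, 86750 and 86510. KO_RA replicate 3 and KO_vehicle replicate 3 thus stood far below the other 2 arrays of their groups, at 13170 and 11840. For example Sox17, an endoderm transcription factor named after its values were seen, averaged 199 in KO_RA, 210 in KO_vehicle, 2055 in WT_RA and 2140 in WT_vehicle. The largest part of the endoderm sum was Sparc, which averaged 15120 in KO_RA, 14120 in KO_vehicle, 25580 in WT_RA and 25890 in WT_vehicle. Not every endoderm marker went this way. Lrp2 averaged 1569 in KO_RA, 1376 in KO_vehicle, 1411 in WT_RA and 1977 in WT_vehicle. The sum over the 9 stem cell markers was 134000 to 144300 in KO_RA, 134000 to 161500 in KO_vehicle, 87100 to 100500 in WT_RA and 120300 to 124700 in WT_vehicle. Its largest part was Dppa5a, which averaged 56930, 50240, 48480 and 48760 in that order. The markers did not all move alike. In the same order Sox2 averaged 11300, 13120, 4728 and 8713, higher in KO, and Pou5f1 14050, 14510, 15040 and 18960, lower in KO. Of 6 neural markers 4 were above background in KO_RA, 5 in KO_vehicle, 4 in WT_RA and 4 in WT_vehicle, with sums of 2368 to 2751, 2537 to 2780, 1355 to 1632 and 1569 to 1862 in that order. The largest part of the neural sum was Tubb3, which averaged 1653, 1632, 703 and 1155 in that order. Of 8 fibroblast markers 1 was above background in KO_RA, 1 in KO_vehicle, 1 in WT_RA and 0 in WT_vehicle. The part of cell makeup in the 10 genes' values was not tested, and in bulk RNA fewer cells of a type and less RNA per cell cannot be told apart.

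For the RA change averaged over genotypes, 5 of the 10 genes passed, against 0.628% of all probe sets. As stated above, this count is not independent support, since a gene that stands apart in 1 group has a nonzero value here too. Esyt3 (0.90, SE 0.15, adjusted p = 0.00735) and Pik3r1 (1.02, SE 0.20, adjusted p = 0.0218) rose in RA. Utf1 (-1.02, SE 0.15, adjusted p = 0.00147), Tcea3 (-0.88, SE 0.16, adjusted p = 0.0153) and Lgals3 (-0.99, SE 0.19, adjusted p = 0.0168) fell. The average over genotypes had the same sign in all 3 runs for each of the 5. The KO change alone did not for Esyt3, Pik3r1 and Lgals3, at -0.38, -0.21 and 0.15 in run 1. For Tcea3 and Utf1 the KO change was negative in every run. Not passing were Slc26a2 (0.91, adjusted p = 0.0664), Pla2g7 (-0.81, adjusted p = 0.0901), Pcbd1 (0.58, adjusted p = 0.177), Gpr50 (1.34, adjusted p = 0.277) and Lifr (-0.02, adjusted p = 0.995). For Gpr50 the result depended on single arrays. With any 1 array left out its limma adjusted p ran from 0.0068 to 0.586 and its estimate from 1.11 to 1.80. The second Gpr50 probe set, 1450346_at, did pass (1.60, adjusted p = 0.0361), with a range of 0.0106 to 0.122 with any 1 array left out.

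Blocking by fluidics run, 8 of the 10 genes passed for the averaged RA change, 4 higher and 4 lower, against 2.3% of all probe sets. This count is not independent support either. Slc26a2 (adjusted p = 7.7e-06, range over all alternatives 7.7e-06 to 0.337), Pla2g7 (adjusted p = 0.00173, range 0.00173 to 0.349) and Pcbd1 (adjusted p = 0.0330, range 0.0204 to 0.421) joined the other 5. The count without the block fell to 2, Esyt3 and Utf1, without WT_RA replicate 1 or 2, KO_RA replicate 1 or 2, or KO_vehicle replicate 2, and the highest adjusted p with any 1 array left out was 0.0342 for Esyt3 and 0.00930 for Utf1. With no intensity trend in limma 0 of the 10 passed, with the smallest adjusted p at 0.0714 (Esyt3) and 0.0857 (Utf1).

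**Figure D3:**
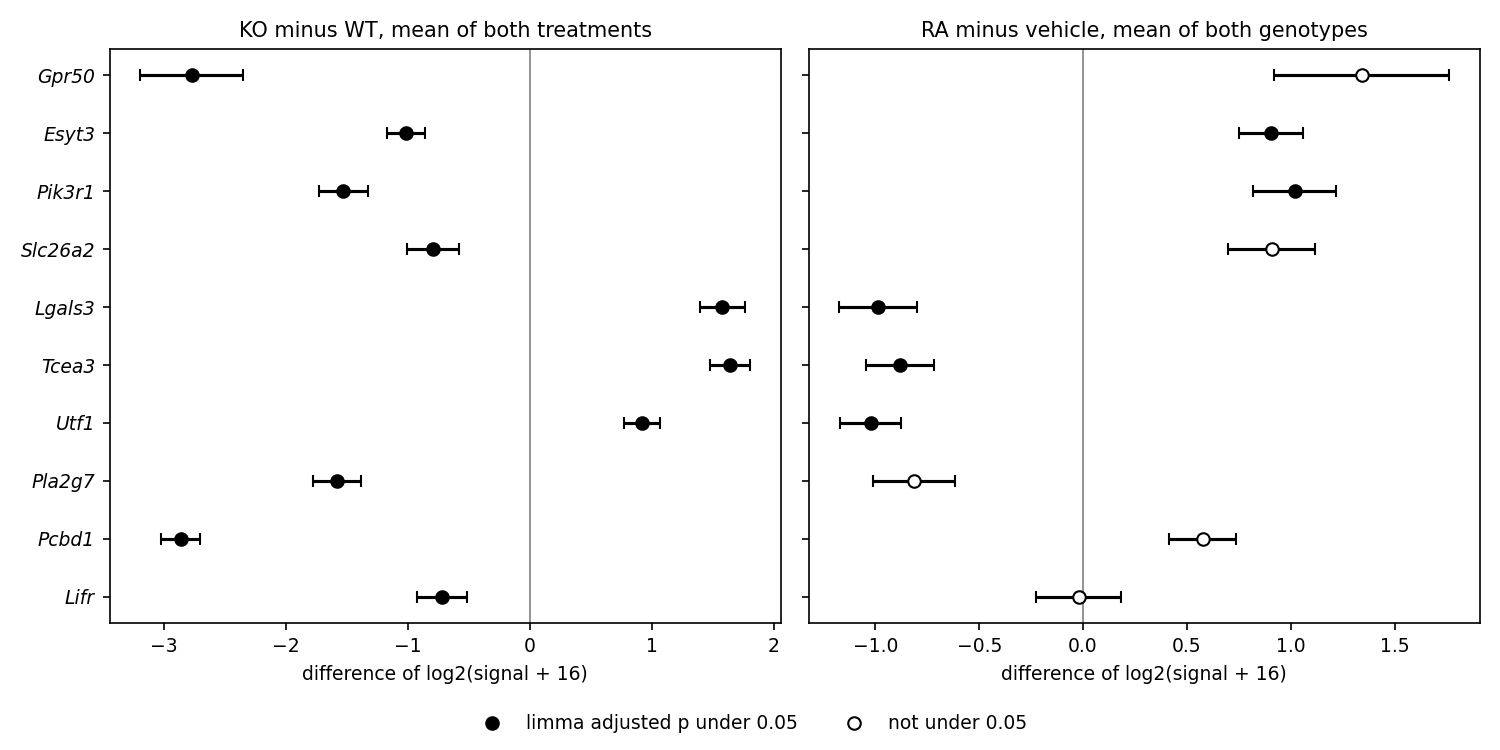
Estimates for the 10 genes with their standard errors as bars, on the log2(signal + 16) scale: KO minus WT averaged over both treatments (left) and RA minus vehicle averaged over both genotypes (right). Filled points had a limma adjusted p under 0.05, which held for 10 of 10 genes on the left and 5 of 10 on the right.

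**Figure D4:**
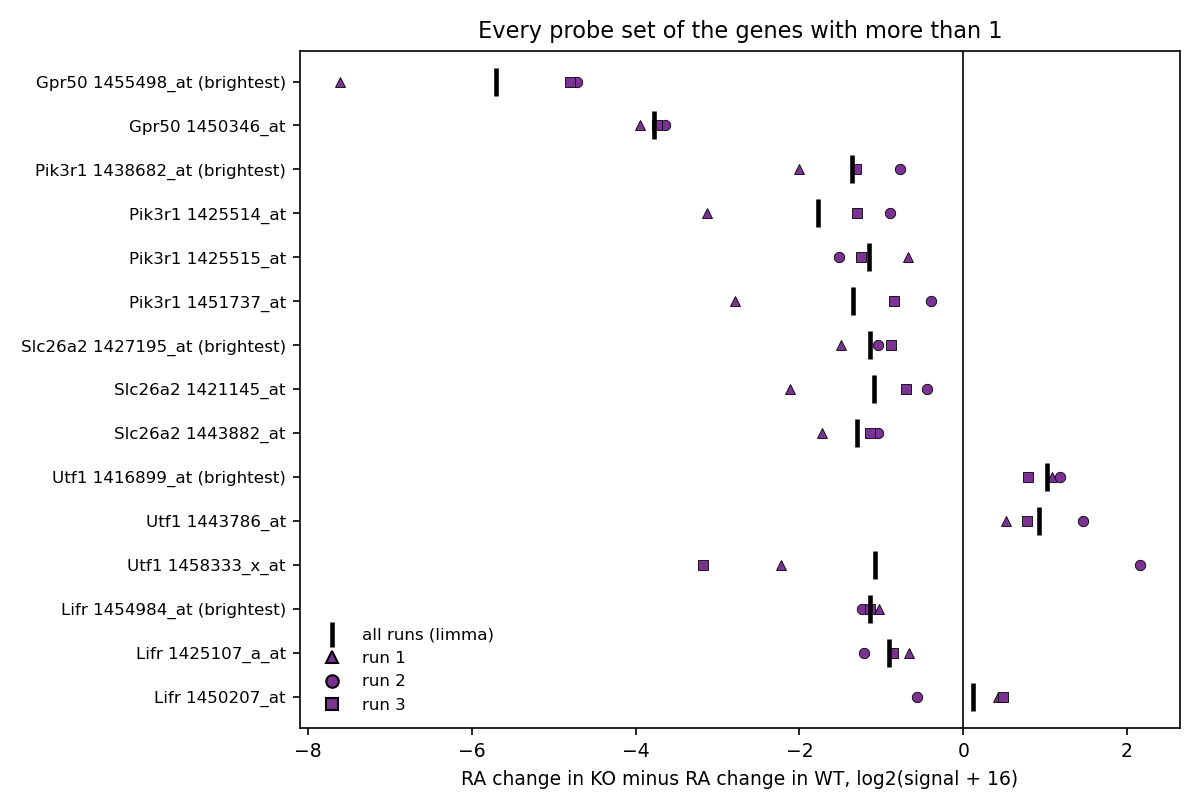
Difference of the RA changes, KO minus WT, on the log2(signal + 16) scale for every probe set of the 5 genes with more than 1; bars are the estimates over all runs and symbols the 3 runs. The sign changed between runs for Utf1 1458333_x_at and Lifr 1450207_at. The genes were picked for this difference, so nothing is read from the steady sign of the others.

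To place the 10 genes among their partners, 10 lists of genes with related roles were drawn up, such as the LIF and gp130 pathway for Lifr and class I phosphoinositide 3-kinase for Pik3r1. Of 202 symbols 182 were matched and 143 were above background. For RA against vehicle in KO, 0 of the 182 passed limma's test against a background of 0.0799%, with 9 (4.95%) at an unadjusted p under 0.05, against 5.93% of all probe sets. Blocked by run, 2 passed, Lgals1 and Lefty1, against 0.302%. Lgals1, another galectin, averaged 3410 ± 2008 in KO_RA, 2104 ± 1036 in KO_vehicle, 4182 ± 1072 in WT_RA and 3116 ± 1100 in WT_vehicle (SD, n = 3 each), and its change differed from that of Lgals3 in sign in both genotypes (0.65 in KO and 0.45 in WT).

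For RA against vehicle in WT, 4 of the 182 fell and 0 rose, against 0.193% of probe sets that fell, and all 4 were among the 28 genes of the undifferentiated state listed for Utf1. Tdgf1, the Nodal co-receptor Cripto, averaged 16120 ± 689 in KO_RA, 22420 ± 2867 in KO_vehicle, 3284 ± 105 in WT_RA and 11310 ± 945 in WT_vehicle (SD, n = 3 each), and it fell by 1.78 in WT (SE 0.13, adjusted p = 3.6e-06). Fgf4, a growth factor made by undifferentiated cells, fell by 1.34 in WT (SE 0.16, adjusted p = 0.000341), with 752 ± 145 in WT_RA and 1909 ± 132 in WT_vehicle. The pluripotency factors Sox2 (-0.89, adjusted p = 0.00443) and Zfp42 (-0.84, adjusted p = 0.0116) were the other 2, and the highest adjusted p with any 1 array left out was 0.0305 for Sox2 and 0.0823 for Zfp42. The median WT change over the 28 genes was -0.29, against 0.05 over all probe sets. At an unadjusted p under 0.05 there were 26 of the 182 (14.3%), against 6.64% of all probe sets. Blocked by run, 14 of the 182 passed, 12 lower and 2 higher, against 2.11%.

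The difference of the RA changes between genotypes passed for 0 of the 182 partner genes, against 0.0% of all probe sets, with 15 (8.24%) at an unadjusted p under 0.05, against 4.63%. Blocked by run, 2 passed, against 0.0488% of all probe sets: Tdgf1 (1.31, SE 0.19, adjusted p = 0.0782 without the block and 0.00188 with it) and Fgf4 (1.09, SE 0.22, adjusted p = 0.481 without the block and 0.0116 with it), the same way as Utf1. With any 1 array left out the adjusted p reached 0.511 for Tdgf1 and 1.0 for Fgf4. In the other 9 lists no gene passed, with or without the block. Their smallest p values belonged to Gbx2 for LIF signalling (1.32), Pik3cd for phosphoinositide 3-kinase (-1.24), Lgals12 for galectins (-2.77), Slc26a8 for sulfation (-1.93), Paf1 for elongation (-0.34), Syt1 for membrane contacts (-1.71), Lpcat1 for phospholipases (-0.48), Pts for tetrahydrobiopterin (-0.68) and Aanat for melatonin (0.30), all with adjusted p of 0.978 or more. Lgals12, Slc26a8 and Aanat were below background on average. The median difference over the 182 genes was 0.02, against -0.16 over all probe sets.

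The genes whose signal followed each member most closely over the 12 arrays were looked up among genes above background, as a description. These correlations mix the treatment and genotype differences that the arrays share with their runs and scaling, and have n = 12 arrays. Esyt3 and Gpr50 shared Dact1, a Wnt pathway regulator (Pearson r = 0.955 with Esyt3 and 0.943 with Gpr50), which averaged 254 in KO_RA, 253 in KO_vehicle, 1199 in WT_RA and 283 in WT_vehicle. Sdk2 (r = 0.955) was the closest to Gpr50 and BC048679 (r = 0.952) the second for Esyt3. Pik3r1 was followed by Plxna2 (r = 0.981) and Zadh2 (r = 0.976), and Slc26a2 by Npr3 (r = 0.965) and Rictor (r = 0.955). Plxna2, a semaphorin receptor, had the same shape, with 94.6 in KO_RA, 79.1 in KO_vehicle, 494 in WT_RA and 133 in WT_vehicle.

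Lgals3 and Utf1 shared the zinc finger gene Zfp296 (r = 0.977 and 0.976), which averaged 1615 in KO_RA, 2191 in KO_vehicle, 530 in WT_RA and 1441 in WT_vehicle. The other neighbours were Prdm14, a germ cell and stem cell regulator, for Lgals3 (r = 0.978) and Tgif1 for Utf1 (r = 0.970). Tcea3 was followed by Wdr46 (r = 0.988) and Sinhcaf (r = 0.983), Pcbd1 by Tmem164 (r = 0.975) and Aig1 (r = 0.973), and Lifr by Efcab14 (r = 0.948) and Poglut3 (r = 0.935). The closest genes to Pla2g7 were less alike, Slc39a4 at r = 0.903 and Tpbg at r = 0.900 (0.9005).

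Among the receptors themselves, Rara averaged 542 in KO_RA, 510 in KO_vehicle, 329 in WT_RA and 305 in WT_vehicle, and Rarb, which is itself a well-known retinoid target, averaged 464 in KO_RA, 78.3 in KO_vehicle (below background), 1885 in WT_RA and 211 in WT_vehicle. The Rarb mean was thus higher in RA than in vehicle in both genotypes.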

How the data were processed

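RNA of 12 F9 cell samples was measured on Affymetrix arrays. The authors deposited 1 linear signal intensity per probe set, made with MAS5 per the submitters' processing notes, and each array's mean after trimming 2% at each end was 500. Experiment files that the authors deposited, of an other kind with no expression, were read only for the logged hybridization time, the scan time and the chip lot. Of 45101 probe sets 64 controls were left out. In the platform annotation 34945 of the remaining 45037 had 1 symbol, 932 several and 9160 none; where a gene had several probe sets the brightest, by mean log2 signal, stood for it. Symbols were matched to RefSeq on GRCm38.p6 through gene IDs for 10 of 10 genes, and the MAS5 version is not given in the sources used here.

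The test was limma's (version 3.58.1 under R 4.3.3, eBayes with an intensity trend) on log2(signal + 16), in 1 fit of 4 groups with 8 residual degrees of freedom, or 6 with the run as a block. Benjamini-Hochberg adjustment covered all 45037 probe sets, with a threshold of 0.05. Folds are ratios on the signal + 16 scale, which understates the change of dim probe sets, and a group below background was set to that level ("at least"). Arrays have no depth to report, and having 3 per group limits the precision. Separate cultures are stated nowhere, so that p-values speak of the spread between these arrays only, which may be technical. Replicate numbers follow the order of deposition.

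The 10 genes, the partner lists and the markers were chosen with earlier results of these data known. Named were the 10 genes, the receptors, the 2 genes closest to each by correlation, up to 2 genes per list and contrast with the smallest adjusted p among those called, and otherwise the gene with the smallest p for the difference; Sox17, Lgals1, Lefty1 and the calls of Sox2 and Zfp42 beyond 2 were named after their values were seen. Alternatives were pseudocounts of 1 and 64, quantile normalization, median centring, the run as a block with and without KO_vehicle replicate 3, testing above background only, array weights, a fit without the intensity trend, and leaving out each array; the chip lot as a block was added after seeing the data.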

Additional observations from a re-analysis of the deposited data

Results flagged for a closer look

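In 4 genes the computed KO and WT changes with RA of the brightest probe set had opposite signs in every fluidics run. They are Gpr50 with a difference of RA changes, KO minus WT, of -5.71, Pla2g7 with -1.84, Pcbd1 with 1.59 and Lifr with -1.13 on the log2(signal + 16) scale. The genes were picked for this difference, so it was not tested, and the choice of genes favours opposite signs. For Gpr50 the KO arrays other than KO_vehicle replicate 3 were below background, so the sign of its KO change was not measured in runs 2 and 3. For Pla2g7 and Pcbd1 the WT changes were small, at 0.10 and -0.22. Lifr was the gene with a change of about the same size in both genotypes, -0.59 in KO and 0.55 in WT, and every one of its group means was above background.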

How the results depend on the processing

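No paired analysis by replicate number was possible because the labels give none; arrays were paired by fluidics run, as a block, instead. The number of the 10 genes passing for the averaged RA change (5) was 3 with median centring, 8 with the run as a block, 9 with the block and without KO_vehicle replicate 3, 0 with no intensity trend, 9 with array weights, and 2 to 6 with 1 array left out. For KO minus WT averaged over treatments it was 8 to 10 with 1 array left out. Partner genes passing for RA in WT (4) numbered 2 with median centring, 14 with the block, 15 with the block and without KO_vehicle replicate 3, 2 with no intensity trend, 13 with array weights and 3 to 6 with 1 array left out (6 without KO_RA replicate 3). For RA in KO (0) they numbered 2, 1 and 2 with the block, with the block and without KO_vehicle replicate 3, and with array weights, and for the difference (0) 2, 1 and 1, and 1 among probe sets above background; with 1 array left out both were 0 to 1 (1 without WT_vehicle replicate 3). Of the patterns, reversed (2) was 1 with median centring, with the block and without KO_vehicle replicate 3, at a size of 1, and with array weights, where gained (2) was 3. Weaker (1) was 2 with median centring, Pik3r1 and Slc26a2, while Utf1 turned lost there. At a size of 1 weaker was 0, and genes in no class (0) were 1 in both of these settings. With 1 array left out lost was 2 to 6 (2 without KO_RA replicate 3, where Lgals3, Tcea3, Pik3r1 and Slc26a2 turned weaker), gained 2 to 3, reversed 1 to 2 and weaker 0 to 5. The probe sets Utf1 1458333_x_at (-1.08) and Lifr 1450207_at (0.12) had a difference of the opposite sign to the gene's brightest probe set, and the averaged RA change of Lifr, -0.02, was 0.0558 with median centring and -0.18 to 0.10 with 1 array left out. Median centring moved the median difference over all probe sets to 0.18, quantile normalization to 0.02, from -0.16 as deposited. With the chip lot as a block, chosen after seeing the data, the counts were 5 for the averaged RA change and 9 for KO minus WT (Lifr had an adjusted p of 0.0632), the partner counts 4, 0 and 0, and the 10 genes' patterns were unchanged in number. Within lot 1 alone the difference had its sign in 10 of 10 genes, from -7.73 in Gpr50 to 1.59 in Pcbd1. The choice of genes favours that direction. Lot 1 held 1 KO_vehicle array, replicate 3 with the high median, so every KO change within it rests on that array. The Lifr change within lot 1 was 0.02 in KO and 0.79 in WT, which is not reversed. The cause of these shifts was not tested.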
